A study of Homo sapiens with 8 samples.

Results

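The 10 genes described here encode the insulin and IGF-1 receptors (INSR and IGF1R), their docking proteins IRS1 and IRS2, the regulatory subunit of PI 3-kinase PIK3R1, the kinase PDPK1, the transcription factors FOXO1, FOXO3 and FOXO4, and DDIT4, an inhibitor of mTORC1. They were chosen by name, and all 10 were found among the 19158 genes with a value in each library. The libraries came from A549, an established line of epithelial cells from a human lung adenocarcinoma, labelled wild type and grown in DMEM with FBS. Of 8 wells, 4 were left untreated and 4 received 1 µM dexamethasone, a synthetic agonist of the glucocorticoid receptor, for 48 h; the labels mention no vehicle. All libraries carry the same batch label, and the labels do not say that the wells were set up independently, so p-values measure only the spread between these wells, which may be technical.

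In cells that respond to insulin or IGF, the activated receptor phosphorylates IRS proteins, which recruit PI 3-kinase through its regulatory subunit; the lipid it makes brings PDPK1 and AKT together at the membrane. AKT then holds FOXO factors in the cytoplasm and relieves the block on mTORC1. Both FOXO activity and DDIT4 oppose that output, and FOXO factors are known to raise transcription of INSR and IRS2, while glucocorticoids are known to reduce insulin sensitivity in muscle, fat and liver.

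Values were read as FPKM, a unit inferred from the numbers: fragments scaled by transcript length and library size, so levels can be compared between genes. Genes above 0 numbered 14798 to 15182 in each of the 8 files. FKBP5, an established glucocorticoid target used as a check of the labels, was between 3.28 and 7.30 FPKM in the untreated libraries and between 87.3 and 166 FPKM in the treated ones. Keratins KRT8 and KRT18 lay between 805 and 2195 FPKM throughout, while the epithelial marker EPCAM was at 0.765 FPKM or below. Of the other epithelial markers, KRT19 was lower after treatment (log2 fold change -1.49, limma adjusted p = 0.0014) and CDH1 higher (means of 6.8 and 18.2 FPKM, limma adjusted p = 8.15e-05). The leukocyte markers PTPRC and CD3E and the fibroblast marker COL1A2 were listed at 0 in all 8. The summed level of 4 leukocyte markers was nevertheless lower after treatment, at 3.07 to 3.75 FPKM against 5.78 to 7.52, and that of 4 fibroblast markers was 0.598 to 0.741 FPKM against 1.81 to 2.29. COL1A1 carried most of the fibroblast sum (mean 2.03 FPKM untreated, 0.367 treated), whereas DCN was listed at 0 in every untreated library and at 0.178 to 0.355 FPKM in the treated ones. The part of these markers in the results was not tested. Untreated replicate 5 stood apart: after scaling between libraries it was the lowest untreated library for 41.5% of all tested genes and for 7 of the 10 genes described here. Dexamethasone replicate 5 shared this in part over all tested genes, as the lowest treated library for 36.9% of them, followed by dexamethasone replicate 1 with 31.2%. Among the 10 genes it did not stand apart, being lowest for 3, while dexamethasone replicate 4 was lowest for 4.

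After dexamethasone 8 of the 10 genes were higher and none was lower, at a limma adjusted p under 0.05 over 12161 genes tested. The background was 26.7% of tested genes called, with 12.4% called higher and 14.3% called lower. The 10 genes were chosen with earlier results of these data known, so their count may reflect that choice. DDIT4, FOXO1, FOXO3 and IRS2 rose by 2.11, 1.82, 1.63 and 1.38 on the log2 scale, PIK3R1 by 1.15, and FOXO4, IRS1 and INSR by 0.73, 0.60 and 0.47. IGF1R and PDPK1 did not pass. The median log2 fold change of the 10 genes was 0.94, against 0.01 for all tested genes. For the same 8 genes the treated libraries lay wholly above the untreated ones, which held in this direction for 14.5% of tested genes. A rise in every cell and a rise in some of the cells cannot be told apart in these bulk libraries.

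**Figure D1:**
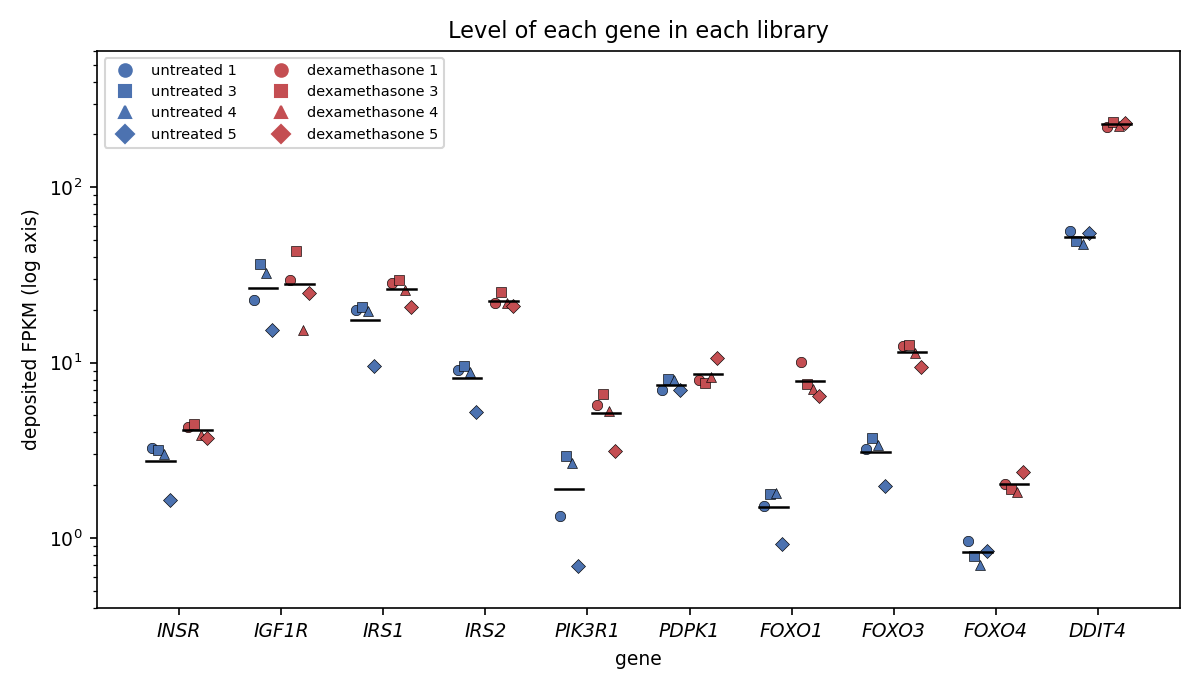
Deposited FPKM of each gene in each of the 8 libraries, on a log axis; symbols give the replicate number, blue is untreated, red is dexamethasone, and bars are group means. DDIT4 is the most abundant in both groups, the groups do not overlap for 8 genes, and IGF1R and PDPK1 overlap.

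The promoters of the 4 genes with the largest log2 fold change on log2(FPKM + 1) are shown as the regulatory sequence nearest to the changes. This choice depends on the scale: with 0.1 added to FPKM in place of 1, PIK3R1 (1.54) exceeded IRS2 (1.48). Each is the 250 bases before the first annotated start, 5′ to 3′ on the gene's strand, from RefSeq on GRCh38.p14. Capitals mark matches on either strand. The letters searched were ACGTG, the core of the hypoxia response element. A GC box was searched as GGGCGG. The insulin response sequence was searched by its core CAAAACA. The CCAAT box was searched by the letters of its name, and neighbouring GC boxes can overlap.
DDIT4, chr10:72273674-72273923, plus strand: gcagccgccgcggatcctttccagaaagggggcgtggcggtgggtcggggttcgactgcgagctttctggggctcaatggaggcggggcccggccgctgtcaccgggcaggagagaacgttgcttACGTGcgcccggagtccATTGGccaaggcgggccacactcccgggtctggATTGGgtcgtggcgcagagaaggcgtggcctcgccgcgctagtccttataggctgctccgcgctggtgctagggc
FOXO1, chr13:40666642-40666891, minus strand: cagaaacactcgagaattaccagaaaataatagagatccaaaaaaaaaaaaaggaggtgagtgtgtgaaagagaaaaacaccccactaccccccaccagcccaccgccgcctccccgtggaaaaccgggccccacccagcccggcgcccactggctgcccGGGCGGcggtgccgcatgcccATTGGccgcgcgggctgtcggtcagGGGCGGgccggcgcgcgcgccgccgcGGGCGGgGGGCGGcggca
FOXO3, chr6:108559575-108559824, plus strand: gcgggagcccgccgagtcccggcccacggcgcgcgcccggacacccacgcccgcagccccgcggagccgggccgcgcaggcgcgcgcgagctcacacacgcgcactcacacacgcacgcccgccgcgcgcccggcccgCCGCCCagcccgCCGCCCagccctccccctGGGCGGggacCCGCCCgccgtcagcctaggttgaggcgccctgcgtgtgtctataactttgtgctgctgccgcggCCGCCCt
IRS2, chr13:109786584-109786833, minus strand: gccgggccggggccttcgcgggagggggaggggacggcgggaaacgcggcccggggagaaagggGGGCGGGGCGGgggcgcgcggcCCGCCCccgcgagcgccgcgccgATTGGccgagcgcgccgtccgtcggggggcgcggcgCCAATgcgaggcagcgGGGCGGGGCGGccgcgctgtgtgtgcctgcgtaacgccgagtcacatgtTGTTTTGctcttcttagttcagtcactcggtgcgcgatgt
The DDIT4 window held 1 ACGTG core and 2 CCAAT boxes, with no GC box. FOXO1 had 4 GC boxes and 1 CCAAT box, and FOXO3 had 5 GC boxes. The IRS2 window held 5 GC boxes, 2 CCAAT boxes and 1 CAAAACA match, read as TGTTTTG on the printed strand.

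Most of these letters occur in many promoters. Among all 35116 RefSeq windows of this length, ACGTG occurred in 18.5%, GGGCGG in 42.6%, CCAAT in 32.0% and CAAAACA in 4.30%. The full palindrome bound by the glucocorticoid receptor, AGAACA and TGTTCT held apart by 3 bases, occurred in 1 of those windows and in none of the 16 windows of the 10 genes. A single arm of it, TGTTCT, occurred in 12.4% of all windows and in 1 of the 16, at an internal start of PIK3R1. The forkhead site GTAAACA occurred in 2.98% of all windows and in none of the 16. These 250 bases exclude distal elements, where much glucocorticoid receptor binding is known to lie. The 4 printed windows were GC-rich, from 67.2% in FOXO1 to 80.4% in FOXO3, beside a median of 58.0% over all windows.

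Of the receptors, INSR was called higher and IGF1R was not; the difference between their responses was not tested. INSR, the insulin receptor (ENSG00000171105, GRCh38 chromosome 19, 7112255 to 7294034, minus strand), was at 3.24, 3.16, 3.00 and 1.64 FPKM in untreated wells 1, 3, 4 and 5. In dexamethasone replicates 1, 3, 4 and 5 it was at 4.32, 4.49, 3.89 and 3.74 FPKM. Every treated library was above every untreated one, with untreated replicate 5 far below its group. The mean went from 2.76 ± 0.752 to 4.11 ± 0.353 FPKM (SD, n = 4 wells per group), giving a log2 fold change of 0.47 on log2(FPKM + 1) (standard error 0.132; adjusted p = 0.0258 by limma). The call rests on narrow ground: it was lost without untreated replicate 4 or dexamethasone replicate 1, 3 or 4, and without scaling between libraries, at adjusted p between 0.0507 and 0.0781. The fold change stayed between 0.36 and 0.53 when any 1 library was left out.

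IGF1R, the IGF-1 receptor (ENSG00000140443, chromosome 15, 98648539 to 98964530, plus strand), was the more abundant receptor mRNA. It stood at 22.8, 36.6, 32.4 and 15.3 FPKM in untreated wells 1, 3, 4 and 5, and at 29.4, 43.5, 15.3 and 24.8 FPKM in the treated replicates of the same numbers. Both groups spanned nearly the same range, and the lowest treated value, in replicate 4, equalled the lowest untreated value to the digits shown. The log2 fold change was 0.05, with a 95% interval of -0.62 to 0.73 (limma adjusted p = 0.909), which leaves room for a rise or fall of moderate size. Its sign was set by single libraries: the log2 fold change turned to -0.17 when dexamethasone replicate 3 was left out, to -0.10 or -0.01 when untreated replicate 5 or 1 was, and to -0.11 with both libraries numbered 5 removed.

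INSR made up 12.4%, 7.93%, 8.48% and 9.67% of the summed FPKM of both receptors in untreated replicates 1, 3, 4 and 5. After dexamethasone the share was 12.8%, 9.36%, 20.2% and 13.1%. The groups overlapped, and the highest share belonged to the treated library with the least IGF1R. IGF1R mRNA exceeded INSR mRNA in all 8 libraries.

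The docking proteins both rose, IRS2 by 1.38 and IRS1 by 0.60 on the log2 scale. IRS1 (ENSG00000169047, chromosome 2, 226731317 to 226799759, minus strand) was at 20, 20.8, 19.8 and 9.55 FPKM in untreated wells 1, 3, 4 and 5. In the treated replicates it was at 28.4, 29.4, 26.0 and 20.8 FPKM. The groups met at 20.8 FPKM, where untreated replicate 3 and dexamethasone replicate 5 differed only beyond the digits shown, and untreated replicate 5 lay far below the rest. The log2 fold change was 0.60 (standard error 0.176; adjusted p = 0.0326 by limma). This call too was lost without scaling (adjusted p = 0.103) and without untreated replicate 4 or dexamethasone replicate 1, 3 or 4, at adjusted p of 0.0505, 0.0875, 0.0908 and 0.0737.

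IRS2 (ENSG00000185950, chromosome 13, 109752698 to 109786568, minus strand), a main insulin docking protein of liver, was at 9.08, 9.58, 8.82 and 5.25 FPKM untreated. The treated replicates 1, 3, 4 and 5 gave 21.8, 25.2, 22.0 and 21.0 FPKM. The groups were well apart, with the lowest treated library above 20 FPKM and the highest untreated one under 10 FPKM. The mean rose from 8.18 ± 1.98 to 22.5 ± 1.84 FPKM (SD, n = 4 wells per group), a ratio of 2.75 and a log2 fold change of 1.38 (standard error 0.132; adjusted p = 6.27e-05 by limma).

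As a share of IRS1 plus IRS2, IRS2 was 31.2%, 31.6%, 30.9% and 35.5% in the untreated replicates and 43.5%, 46.2%, 45.9% and 50.2% in the treated ones. The shares did not overlap, and in dexamethasone replicate 5 both mRNAs were about equal. This share is independent of the scaling between libraries.

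**Figure D2:**
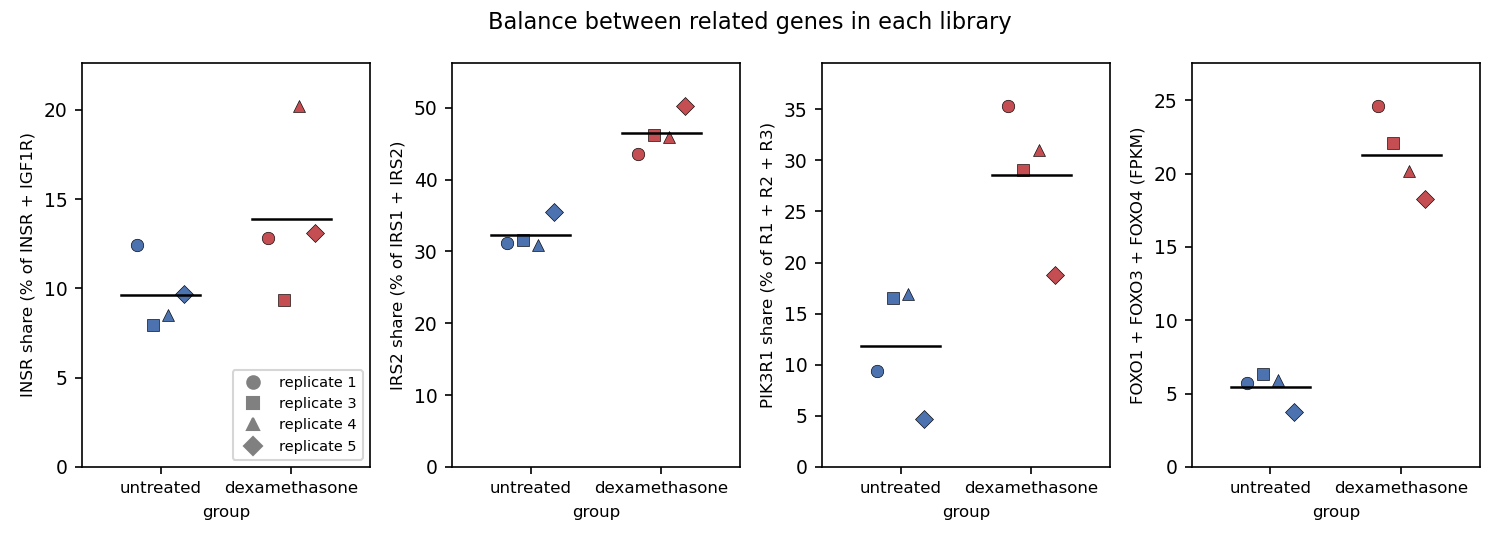
Balance between related genes, computed from deposited FPKM in each library: the share of INSR among both receptors, of IRS2 among both docking proteins and of PIK3R1 among PI 3-kinase regulatory subunits (percent), and the summed FPKM of the FOXO genes. Bars are group means; the groups overlap for the INSR share, from 7.93% to 20.2%, and do not for the other panels.

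PIK3R1 (ENSG00000145675, chromosome 5, 68215720 to 68301821, plus strand) encodes p85 alpha and its shorter forms, which hold and steady the catalytic subunit and bind phosphorylated IRS proteins. It was at 1.33, 2.92, 2.68 and 0.692 FPKM in untreated wells 1, 3, 4 and 5 and at 5.72, 6.59, 5.30 and 3.14 FPKM in the treated ones. The lowest treated library, replicate 5, was just above the highest untreated library, replicate 3, and replicate 5 was lowest in both groups. The log2 fold change was 1.15 (standard error 0.252; adjusted p = 0.00828 by limma), the widest error among the genes that rose.

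The other regulatory subunits did not pass. PIK3R2 was at 12.9 ± 1.03 FPKM untreated and 12.2 ± 2.41 FPKM treated (SD, n = 4 wells per group; log2 fold change -0.09, limma adjusted p = 0.730), and PIK3R3 stayed near 1 FPKM or below. PIK3R1 went from 11.9% ± 5.91 to 28.6% ± 7 of the 3 regulatory mRNAs (SD, n = 4 wells per group). The catalytic genes did not pass either and differed in sign. PIK3CA and PIK3CB had log2 fold changes of 0.62 (95% interval 0.14 to 1.11) and 0.36 (-0.09 to 0.82), with limma adjusted p of 0.0595 and 0.209. PIK3CD, named after its values were seen, was at 4.02 ± 0.468 FPKM untreated and 2.92 ± 0.139 FPKM treated (SD, n = 4 wells per group), without overlap (log2 fold change -0.36, 95% interval -0.66 to -0.05, limma adjusted p = 0.0794). PIK3CA was low throughout, between 0.187 FPKM in untreated replicate 5 and 2.49 FPKM in dexamethasone replicate 1.

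PDPK1, the kinase that phosphorylates AKT and SGK in their activation loops (ENSG00000140992, chromosome 16, 2537964 to 2603188, plus strand), was at 7, 8.02, 7.92 and 7.01 FPKM untreated and at 8, 7.61, 8.32 and 10.6 FPKM treated. The groups overlapped, and dexamethasone replicate 5 was the one library above 10 FPKM. The log2 fold change was 0.17 (95% interval -0.16 to 0.51, limma adjusted p = 0.415). With each library's trend on gene GC content removed it became 0.35 and passed (adjusted p = 0.0206), whereas without dexamethasone replicate 5 it was 0.05. PDPK1 has a near-identical pseudogene, PDPK2P, and how the authors counted reads shared by such copies is not stated, so its level is uncertain.

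All FOXO factors of the set rose, with every treated library above every untreated one. FOXO1 (ENSG00000150907, chromosome 13, 40469953 to 40666597, minus strand), a driver of gluconeogenic genes in liver, was at 1.52, 1.78, 1.81 and 0.922 FPKM untreated. In dexamethasone replicates 1, 3, 4 and 5 it was at 10.1, 7.60, 7.07 and 6.47 FPKM. The lowest treated value was more than 3 times the highest untreated value. The mean went from 1.51 ± 0.410 to 7.81 ± 1.6 FPKM (SD, n = 4 wells per group), a ratio of 5.18, the largest of the 10 genes by this measure. Its log2 fold change was 1.82 (standard error 0.143; adjusted p = 1.92e-05 by limma).

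FOXO3 (ENSG00000118689, chromosome 6, 108559835 to 108684774, plus strand), which drives arrest, stress-resistance and autophagy genes in many cell types, was at 3.23, 3.74, 3.41 and 1.97 FPKM untreated. The treated replicates gave 12.5, 12.6, 11.3 and 9.50 FPKM. Again the groups were well apart, and replicate 5 was lowest in both. The log2 fold change was 1.63 (standard error 0.130; adjusted p = 1.96e-05 by limma) and the ratio of means was 3.72. FOXO3 has a near-identical copy, FOXO3B, which leaves the same uncertainty over shared reads.

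FOXO4, the X-linked member of the family (ENSG00000184481, chromosome X, 71096197 to 71103535, plus strand), was the least abundant of the 10 genes. It was at 0.968, 0.795, 0.701 and 0.846 FPKM untreated and at 2.03, 1.91, 1.83 and 2.37 FPKM treated. Here replicate 5 was not the lowest in either group, and the groups did not overlap. The log2 fold change was 0.73 (standard error 0.116; adjusted p = 0.00146 by limma), on a scale that understates changes near 1 FPKM; the ratio of means was 2.46.

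Summed over these factors, FOXO mRNA was 5.72, 6.31, 5.92 and 3.74 FPKM in untreated and 24.6, 22.1, 20.2 and 18.3 FPKM in treated replicates 1, 3, 4 and 5. FOXO3 supplied 56.5% ± 2.76 of this sum before and 53.9% ± 3.09 after treatment (SD, n = 4 wells per group), with overlapping ranges. The remaining family member, FOXO6, was at 0.376 to 0.669 FPKM untreated and 0.143 to 0.210 FPKM treated, below the filter on low values and therefore not tested.

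DDIT4, also called REDD1 (ENSG00000168209, chromosome 10, 72273920 to 72276036, plus strand), restrains mTORC1 through the TSC1-TSC2 complex and is a known target of glucocorticoids, hypoxia and ATF4. It was at 56.6, 49.1, 47.4 and 55.1 FPKM in untreated wells 1, 3, 4 and 5 and at 221, 237, 223 and 232 FPKM in the treated ones. Both groups were tight, replicate 5 included, and lay far apart. The mean went from 52.1 ± 4.49 to 228 ± 7.82 FPKM (SD, n = 4 wells per group), a ratio of 4.39 and the largest log2 fold change of the set, 2.11 (standard error 0.161; adjusted p = 1.66e-05 by limma). With 0.1 added to FPKM in place of 1, FOXO1 (2.32) exceeded DDIT4 (2.13). DDIT4 stood at the percentile 94.3 of all genes by mean level before treatment and at 99.0 after. Its paralogue DDIT4L stayed below 1 FPKM in every library (log2 fold change -0.05, limma adjusted p = 0.805).

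By mean level in untreated cells, DDIT4 was followed by IGF1R, IRS1, IRS2, PDPK1, FOXO3, INSR, PIK3R1, FOXO1 and FOXO4. Only DDIT4 over IGF1R and PDPK1 over FOXO3 were neighbours whose libraries did not overlap. After treatment FOXO3 moved above PDPK1, and FOXO1 and PIK3R1 moved above INSR. Clear gaps then lay between DDIT4 and IGF1R, between IRS2 and FOXO3, and between INSR and FOXO4.

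**Figure D3:**
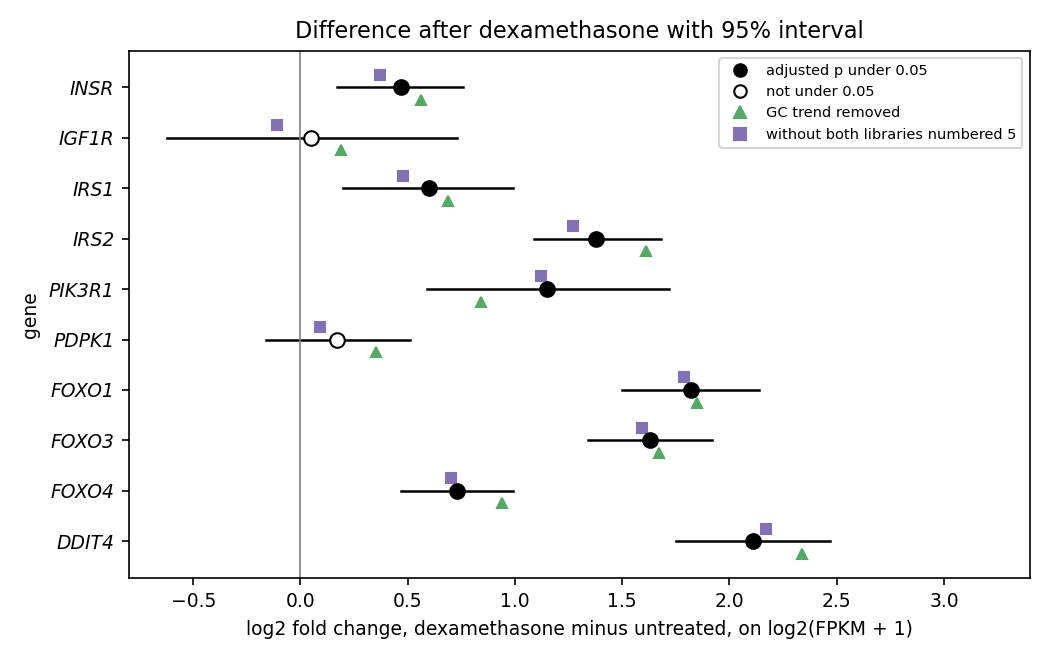
Log2 fold change of each gene on log2(FPKM + 1), dexamethasone minus untreated, with its 95% interval (circle filled where the adjusted p is under 0.05); triangles show the value with the GC trend removed and squares the value without both libraries numbered 5. The intervals of IGF1R (-0.62 to 0.73) and PDPK1 (-0.16 to 0.51) include 0, and the other 8 lie above it.

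Around these genes, other insulin and IGF signalling genes moved in both directions. Of 39 listed, 32 were tested, and 5 were higher and 5 lower, 31.2% called against the background of 26.7%, with a median log2 fold change of -0.08. SGK1, a kinase activated through PDPK1 and a classical glucocorticoid target, rose from 6.07 ± 1.74 to 23.3 ± 7.10 FPKM (log2 fold change 1.76, limma adjusted p = 0.000552; SD, n = 4 wells per group). PHLPP1, a phosphatase that removes an activating phosphate from AKT, rose from 3.4 ± 0.404 to 6.82 ± 0.342 FPKM (log2 fold change 0.83, limma adjusted p = 0.000372). IGF2R, which clears IGF-2 from the cell surface, rose by 0.58 on the log2 scale (limma adjusted p = 0.00868).

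On the falling side, the ligand IGF2 went from 3.46 ± 1.1 to 1.33 ± 0.0972 FPKM (SD, n = 4 wells per group; log2 fold change -0.90, limma adjusted p = 0.00185). The receptor-binding adaptors SH2B2 and GRB10 had log2 fold changes of -0.74 and -0.57 (limma adjusted p = 0.0126 and 0.0171); the GRB10 call was lost without dexamethasone replicate 1 (adjusted p = 0.0555). IGF1, INSRR and IRS4 were listed at 0 in most libraries and at 0.0103 FPKM or below in the rest.

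The AKT genes did not pass, though the intervals of AKT1 and AKT2 lay almost wholly below 0. AKT1 was at 44.3 ± 5.25 FPKM untreated and 33.2 ± 4.18 FPKM treated, and AKT2 at 82.4 ± 6.16 and 63.1 ± 4.05 FPKM (SD, n = 4 wells per group), with log2 fold changes of -0.41 (95% interval -0.83 to 0.01) and -0.38 (-0.72 to -0.04) and limma adjusted p of 0.135 and 0.0940. For AKT2 the treated libraries all lay below the untreated ones. The count of calls in this list was 6 without untreated replicate 3 or without dexamethasone replicate 1, and it reached 19 with both libraries numbered 5 removed. In that last setting 5516 of 12236 tested genes were called.

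Genes of the mTOR complexes, their regulators and their substrates mostly did not pass. Of 25, 3 were called, 1 higher and 2 lower, or 12.0% against 26.7% of all tested genes. The median log2 fold change was -0.05 and had no stable sign: it was -0.12 without dexamethasone replicate 4 and 0.09 with both libraries numbered 5 removed. PRR5, a subunit of mTORC2, went from 12.7 ± 3.41 to 4.12 ± 0.511 FPKM (SD, n = 4 wells per group; log2 fold change -1.40, limma adjusted p = 0.00189). CASTOR1, an arginine sensor upstream of mTORC1, had a log2 fold change of -0.73 (limma adjusted p = 0.00257). TFEB, a lysosomal transcription factor that mTORC1 restrains, rose from 2.04 ± 0.288 to 4.47 ± 0.489 FPKM (SD, n = 4 wells per group; log2 fold change 0.84, limma adjusted p = 0.00372). TSC1 and TSC2, through which DDIT4 acts, had log2 fold changes of 0.11 and 0.13 (limma adjusted p = 0.531 and 0.678). The count rose to 6 when dexamethasone replicate 5 was left out, to 8 with both libraries numbered 5 removed and to 9 with the GC trend removed. Calls over all tested genes rose as well, from 3251 of 12161 to 3651 of 12285, 5516 of 12236 and 4547 of 12130 in the same order. The gap between this list and the background therefore depended on the setting.

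Genes known from other cells as FOXO targets were called in 1 direction: of 34 gene identifiers, 26 were tested, 9 were higher and none was lower (34.6%, against 12.4% of all tested genes called higher). The list was written with earlier results of these data known, so its share may reflect that choice. Log2 fold changes above 0 were held by 20 of the 26, beside 6201 of 12161 tested genes. The list does not record whether FOXO factors raise or lower each gene, so these counts give direction of change only. The tested targets below 0, named after their values were seen, were not called. They ran from -0.37 (IGFBP1, limma adjusted p = 0.239) to -0.10 (ERBB3), with KLF2, BCL2L11, BBC3 and PIK3IP1 between. The median log2 fold change of the list was 0.42, and 0.27 with the GC trend removed. PDK4, which limits glucose oxidation, went from 4.49 ± 2 to 34.6 ± 9.66 FPKM (log2 fold change 2.75, limma adjusted p = 8.75e-05; SD, n = 4 wells per group). CITED2, a transcriptional co-regulator, went from 5.50 ± 0.375 to 26.7 ± 3.27 FPKM (log2 fold change 2.08, limma adjusted p = 1.54e-05; SD, n = 4 wells per group). BCL6, a transcriptional repressor, went from 3.22 ± 0.309 to 13.1 ± 0.796 FPKM (log2 fold change 1.74, limma adjusted p = 4.61e-06; SD, n = 4 wells per group). The other 6 called, named after their values were seen, were CAT, CCNG2, GADD45A, MAP1LC3B, RBL2 and 1 of the 2 identifiers of SOD2. The coordinates of these 2 identifiers overlap. The called one was the less abundant, at 0.286 to 1.21 FPKM untreated and 0.959 to 1.91 FPKM treated. Its groups overlapped (limma adjusted p = 0.0333). The more abundant one, with a mean of 4.11 FPKM untreated, was not called (log2 fold change 0.41, limma adjusted p = 0.307). The 8 identifiers not tested were below the filter on low values. PDK4 is itself a known target of the glucocorticoid receptor, and the part of FOXO factors in these changes was not tested.

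Targets of hypoxia and of ATF4, the other known inducers of DDIT4, were split: of 15 tested, 2 were higher and 2 lower. That is 26.7% called, the same share as among all tested genes. The median log2 fold change was -0.17, but 0.06 with the GC trend removed and -0.06 without untreated replicate 5. NDRG1 rose from 18.4 ± 1.11 to 98.9 ± 13.3 FPKM (SD, n = 4 wells per group; log2 fold change 2.35, limma adjusted p = 5.27e-06). CA9 was called at 0.43 (limma adjusted p = 0.0475), a call lost in 10 of 17 other settings and without any 1 of 7 libraries. The ATF4 targets ASNS and ATF3 had log2 fold changes of -0.95 and -0.61 (limma adjusted p = 0.000355 and 0.00263). Both higher calls were thus hypoxia targets and both lower calls ATF4 targets, which the pooled share and median do not show. The ATF4 targets not called ran from -0.33 (DDIT3) to -0.09 (VLDLR), all below 0. Hypoxia targets not called lay on both sides of 0, from -0.30 (SLC2A1) to 0.28 (ADM). The part of hypoxia or ATF4 in the rise of DDIT4 was not tested.

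**Figure D4:**
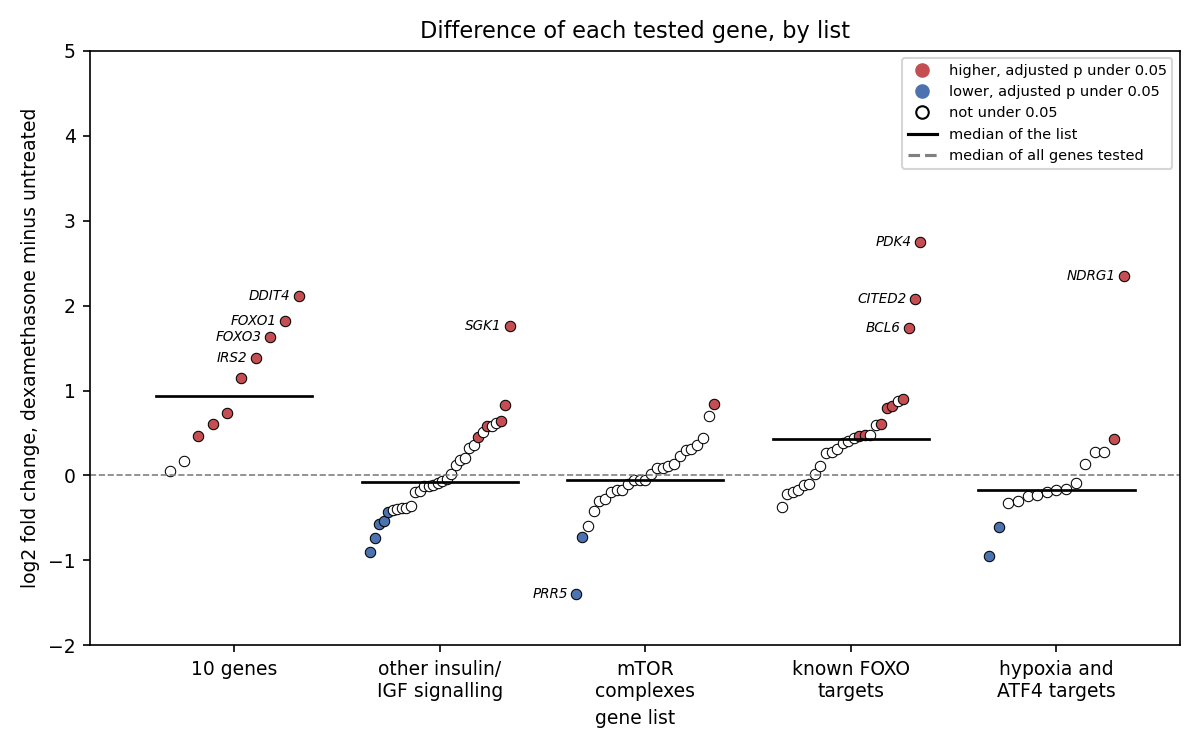
Log2 fold change of every tested gene on log2(FPKM + 1), grouped by list; filled circles have an adjusted p under 0.05, solid bars are list medians (0.94, -0.08, -0.05, 0.42 and -0.17 from left to right) and the dashed line is the median of all tested genes, 0.01. Calls in the list of known FOXO targets are all above 0, whereas the other 3 lists hold calls on both sides.

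The genes whose log2 values followed those of DDIT4 most closely over the 8 libraries were SH3TC1, PAQR7 and PRKCD, with Pearson r of 0.9987, 0.9985 and 0.9976. Those closest to FOXO1 were ELMO1, UQCRC2 and PTPRM, with r of 0.9967, 0.9962 and 0.9962. The treatment difference enters these values. Over deviations from the group means r was 0.96, 0.95 and 0.95 for DDIT4 and 0.93, 0.89 and 0.86 for FOXO1. These genes were picked from all tested genes for the highest r in these same libraries, so high values follow from the choice. Their log2 fold changes ran from 0.43 (UQCRC2) to 2.01 (PRKCD). All points share the same 8 libraries and their scaling.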

How the data were processed

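RNA from 8 wells of A549 was sequenced as paired-end libraries after ribosomal RNA depletion, per the labels' protocols. Per the submitters' processing notes, the authors used FastQC 0.11.9, cutadapt 3.4, STAR 2.7.9a on GRCh38, featureCounts of Subread 2.0.3 and DESeq2 1.32.0; the annotation and strand setting are not given in the sources used here. The deposited values are described as counts, but they are not whole numbers and were read as FPKM; this unit was inferred from the values and no header states it. Steps between low values of genes with 1 transcript gave 24710000 to 28750000 fragments per library, an estimate good for relative depth only, since 42.0% to 48.2% of such values lay within 0.1 of a whole number; whole counts could not be recovered, so count models were not used.

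Coordinates are those given with the values. GENCODE v44 supplied strand, transcript sequences and GC content; in it none of the 10 genes overlaps a protein-coding gene. FPKM were scaled by an unweighted trimmed mean of M values (0.3 of M and 0.05 of A trimmed per side), genes with at least 0.5 FPKM in at least 4 libraries were kept, and limma 3.58.1 (R 4.3.3) was applied to log2(FPKM + 1) (lmFit, eBayes with trend and robust, group as the only term, two-sided, Benjamini-Hochberg over all tested genes, called at an adjusted p under 0.05). Printed FPKM are as deposited, before scaling. The procedure was tested on simulated data. The 10 genes and the 4 lists were chosen with earlier results of these data known. Named from the lists were the 3 called genes with the smallest p in each direction, and partners or paralogues of the 10 genes; for the 2 of the 10 with the smallest p, the 3 genes of most like pattern were named. INS is not analysed here. Alternatives were another pseudocount, filter, scaling or variance model, a replicate block, removal of the GC trend, and leaving out libraries.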

Additional observations from a re-analysis of the deposited data

Results flagged for a closer look

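Among 20 groups of 4 deposited values (10 genes in 2 treatment groups), 2 held a library far from the other 3. By chance about 1 group in 20 would if the groups were independent, but these share the same 8 libraries. In both flagged groups the library was untreated replicate 5. INSR was at 1.64 FPKM there, while the other untreated libraries lay between 3.00 and 3.24 FPKM. IRS1 was at 9.55 FPKM there, beside 19.8 to 20.8 FPKM in the others. These values are before scaling between libraries. The scaling factor of untreated replicate 5 was 0.8239, against 1.031 to 1.086 in the other untreated libraries. Dividing by these factors, as the fit does, brings both genes in that library closer to the others. Without untreated replicate 5 both genes were still called higher after dexamethasone, with limma adjusted p of 0.0229 for INSR and 0.0186 for IRS1.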

How the results depend on the processing

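For IRS2, PIK3R1, the FOXO genes and DDIT4 the call and its direction held in all 18 alternatives, with limma adjusted p of at most 0.0287. Leaving out 1 library gave 2317 to 3882 called genes over the whole table, 6 to 8 of the 10 genes, 6 to 11 of the other insulin and IGF signalling genes, 3 to 6 of the mTOR genes, 6 to 9 of the known FOXO targets and 3 to 5 of the hypoxia and ATF4 targets. The same step moved the log2 fold change of IGF1R between -0.17 and 0.32, with -0.10 and -0.01 among the values below 0; without both libraries numbered 5 it was -0.11. Without both libraries numbered 5 there were 5516 calls in all, 19 in the signalling list and 8 in the mTOR list. With the GC trend removed 4547 of 12130 tested genes and 9 mTOR genes were called. The cause of these shifts was not tested. With no scaling 6 of the 10 genes were called. With 0.1 added to FPKM in place of 1, the median log2 fold change of the 10 genes was 1.34, against 0.94.

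The labels do not say whether shared replicate numbers mark shared days or cultures. The wells were treated as unpaired, with a replicate block as an alternative. Correlations of same-numbered deviations were 0.29, 0.07, 0.31 and 0.71 for replicates 1, 3, 4 and 5, and untreated replicates 1 and 5 alone correlated best with their own number. A replicate block gave 5747 calls in all, 19 signalling genes, 9 mTOR genes, 15 FOXO targets and 7 hypoxia and ATF4 targets; the block with the GC trend removed gave 5326 calls and 10 mTOR genes. Exact depth is unknown, which leaves the counting error of genes near 1 FPKM, such as FOXO4, unquantified.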
